A study of Mus musculus with 36 samples.

Results

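Emx1, Emx2, Lhx2, Dlx1, Dlx2, Gsx2, Nkx2-1, Otx2 and Six3 are 9 homeobox transcription factor genes whose expression marks where in the forebrain a neural progenitor comes from. They were chosen by name, for their dorsal, ventral or anterior identity, as 9 of the 40205 features counted, and each was present in the count tables under its symbol. Their RNA was measured in cultured neural stem cells (NSCs) and in the extracellular vesicles (EVs) that those cells released, by ribosomal RNA-depleted RNA sequencing.

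The NSCs were grown as floating neurospheres, in serum-free medium with mitogens, from the dorsal telencephalic neuroepithelium of wild-type C57BL/6J mouse fetuses at gestational day 12.5. The study's methods name the breeding line as C57BL/6J (Ai14), a line with a Cre-dependent reporter, which the labels do not mention. Tissue was pooled by sex within each of 3 pregnancies (sets 3, 4 and 5), which gave 6 cultures, here named 3F, 4F and 5F (female) and 3M, 4M and 5M (male), used at passages 7 to 10. Each culture was kept without ethanol (control) or with 120 mg/dL (moderate) or 320 mg/dL (heavy) ethanol for 5 days, and both the cells and the EVs of each flask set were sequenced, giving 18 cell and 18 EV libraries, 6 per dose. All groups share the mouse line, the medium and the culture procedure, 4 pooled flasks make 1 sample, and the 3 doses of a culture are parallel flasks of the same cells, so their spread is that between flasks and not between animals. Each sex is represented by 1 pooled culture per pregnancy.

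The dorsal telencephalon forms the cerebral cortex, and the ventral telencephalon forms the basal ganglia and most cortical interneurons. Emx1, Emx2 and Lhx2 are dorsal factors, with Emx2 grading the cortical areas and Lhx2 keeping the cortical primordium from becoming hem. Gsx2 and Nkx2-1 set the identity of the lateral and medial ganglionic eminences, Dlx1 and Dlx2 drive the differentiation and migration of GABAergic neurons there, and Otx2 and Six3 act in the anterior neural plate, Otx2 in the forebrain, midbrain and choroid plexus and Six3 in the anterior forebrain and eye.

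On the GRCm39 assembly, which is the same assembly as the mm39 used for the counts, Emx1 lies at chr6:85164420-85181444 and Emx2 at chr19:59446804-59453789. Lhx2 lies at chr2:38229293-38259759, and Dlx1 and Dlx2 are neighbours in opposite orientation at chr2:71358457-71364325 and chr2:71373752-71377102. Gsx2 lies at chr5:75236252-75238554, Nkx2-1 at chr12:56578742-56583722, Otx2 at chr14:48894099-48911276 and Six3 at chr17:85920640-85936730. All 9 are annotated as protein-coding, with Dlx2, Nkx2-1 and Otx2 on the minus strand.

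The sequences just upstream of the annotated main start site (GENCODE canonical transcript) are given for Gsx2, Otx2 and Six3, the genes whose levels differed most between cultures. Each is written 5′ to 3′ on the gene's own strand, and capitals mark the homeodomain core motif TAATTA. For Otx2 and Six3, which have other annotated starts further upstream, the sequence stops where an exon of the gene itself begins. The bases nearest the main start are therefore not printed for these 2 genes. The full windows run to position 48905008 for Otx2 and to 85928261 for Six3.
Gsx2 upstream region, chr5:75236002-75236251, plus strand: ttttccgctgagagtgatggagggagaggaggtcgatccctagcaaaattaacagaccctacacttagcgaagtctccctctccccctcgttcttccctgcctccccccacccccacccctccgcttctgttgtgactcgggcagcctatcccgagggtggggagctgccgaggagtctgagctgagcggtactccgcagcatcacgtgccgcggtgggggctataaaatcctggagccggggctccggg
Otx2 upstream region, chr14:48905102-48905257, minus strand: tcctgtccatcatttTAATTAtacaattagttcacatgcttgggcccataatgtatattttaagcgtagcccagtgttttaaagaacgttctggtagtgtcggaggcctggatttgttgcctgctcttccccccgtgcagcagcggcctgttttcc
Six3 upstream region, chr17:85928012-85928225, plus strand: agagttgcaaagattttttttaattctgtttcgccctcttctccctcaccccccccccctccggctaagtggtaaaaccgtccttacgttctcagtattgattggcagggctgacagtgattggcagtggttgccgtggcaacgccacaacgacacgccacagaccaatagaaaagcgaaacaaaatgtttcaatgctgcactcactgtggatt

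Within the 250 bases upstream of the start, TAATTA, which reads the same on both strands, was present in Otx2 and Nkx2-1, that is 2 of the 9 genes, against 5.18% of 21770 protein-coding promoters of the same length. GGATTA, searched with its reverse complement TAATCC, was in none of the 9 windows and in 7.0% of all promoters. The letters GGGCGG or CCGCCC were in the windows of Dlx2 and Lhx2 and in 36.3% of all. The GC content of the window was 62.4% for Gsx2, 44.8% for Otx2 and 48.8% for Six3, against a median of 53.2% over all promoters. These matches describe the letters only and do not show that a factor binds there.

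Cell libraries held 26.6 to 55.3 M counts (median 37.8, M for mega) and EV libraries 0.959 to 5.51 M (median 3.83). A total of 3 counts, the upper limit that a count of 0 allows, corresponded to 0.0382 to 0.127 CPM (counts scaled to a library total of 1 M, corrected by TMM factors) in cells and to 0.647 to 4.09 CPM in EVs, from counting error alone. All 9 genes had counts in every cell library, while between 0 and 5 of them (median 2) were at 0 in an EV library. Y-linked genes summed to 141 to 246 CPM in male and 0.534 to 1.41 CPM in female cells, so the sex labels held. NSC markers summed to 2805 to 4489 CPM in cells, oligodendrocyte precursor markers to 208 to 540 CPM, and microglial markers to at most 0.646 CPM. Sox2 and Dlx6, which lie wholly within the span of another listed gene, were at 0 counts in all 36 libraries, as were 50.1% of the 1011 genes with such a position, against 4.71% of 10699 genes with no other gene in their span. The whole span of Dlx1 lies under its opposite-strand partner Dlx1as. The share of the span under opposite-strand genes among the features counted was 59.8% for Lhx2, 35.7% for Nkx2-1, 33.7% for Six3, 29.8% for Otx2, 19.2% for Emx2 and 0.0% for Emx1, Dlx2 and Gsx2. Annotated opposite-strand genes left out of these shares cover a further 579 bases of Gsx2, 3437 of Otx2, 1676 of Six3 and 617 of Lhx2. The levels of Dlx1 and of the other overlapped genes are therefore uncertain, and the part of the overlap in their counts was not tested.

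The dorsal, ventral and anterior genes were ordered by their level per kilobase of exon, which allows a comparison between genes. In cells the highest level belonged to Emx2, at 2.06 ± 0.70 CPM per kb (mean ± SD of 6 culture means), followed by Otx2 at 1.42 ± 1.89, Lhx2 at 0.94 ± 0.22, Six3 at 0.70 ± 0.69 and Gsx2 at 0.67 ± 1.18 CPM per kb. The other 4 genes were lower, with Nkx2-1 at 0.111 ± 0.075, Dlx2 at 0.103 ± 0.080, Emx1 at 0.0948 ± 0.043 and Dlx1 at 0.0331 ± 0.028 CPM per kb. Neighbours in this order differed by less than the larger of their SDs over cultures, except Emx1 and Dlx1. The 2 dorsal genes Emx2 and Lhx2 had narrow spreads, whereas the SD of Otx2 and Gsx2 exceeded their mean. Emx1, the other dorsal gene, stood with the low ventral genes.

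In EVs the same 5 genes led, with Emx2 at 1.21, Lhx2 at 1.14, Gsx2 at 0.68, Otx2 at 0.59 and Six3 at 0.55 CPM per kb. Nkx2-1 followed at 0.29, Emx1 at 0.28, Dlx2 at 0.19 and Dlx1 at 0.042 CPM per kb. Neighbours again differed by less than the larger SD, except Dlx2 and Dlx1. Dividing by the longest transcript, by the whole gene span or by library totals without scaling kept these 5 genes on top in cells and EVs and changed only their order. The highest value of any member in any library, not divided by length, was 33.0 CPM, for Otx2 in cells.

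**Figure D1:**
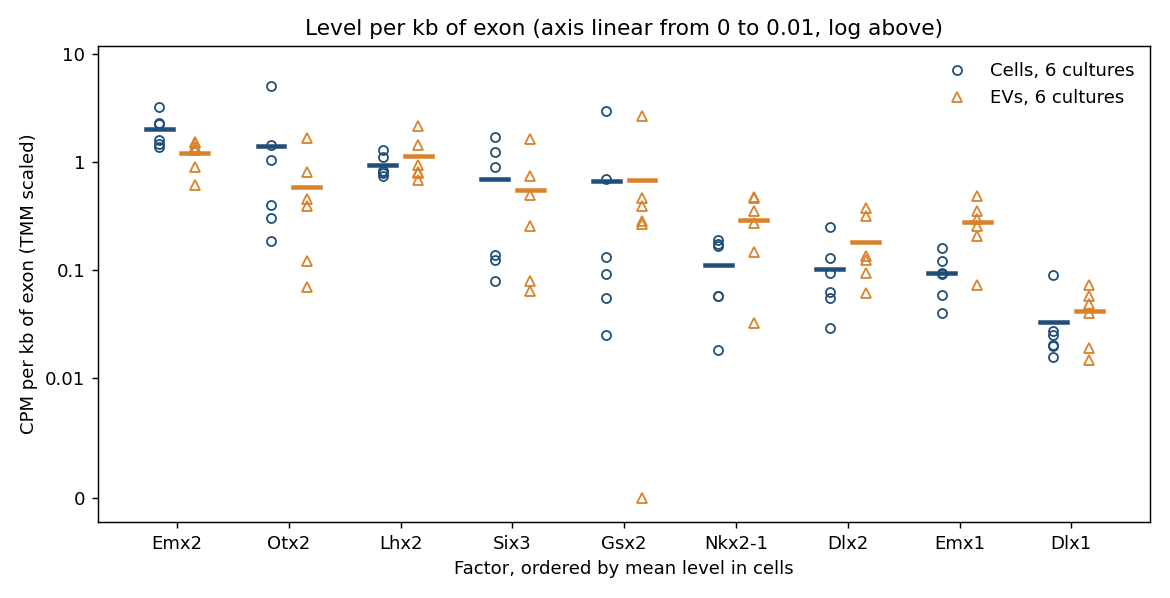
Level of each of the 9 genes per kilobase of exon, with 1 point per culture (mean of its 3 libraries) for cells and for EVs. Emx2 and Lhx2 points lie close together, while Otx2, Six3 and Gsx2 spread widely over the 6 cultures.

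The cultures differed in all 9 genes, most of all in the anterior genes Otx2 and Six3 and in the ventral gene Gsx2, and least in the dorsal genes Emx2 and Lhx2. Otx2 in cells was at 21.0, 29.7 and 33.0 CPM in culture 5F (control, 120 and 320 mg/dL), at 8.18, 7.32 and 7.86 CPM in 4F and at 5.54, 5.24 and 6.33 CPM in 3F. It was at 1.68, 1.40 and 1.91 CPM in 3M, at 1.86, 2.59 and 2.11 CPM in 4M and at 1.31, 0.734 and 0.997 CPM in 5M. Every female library was thus above every male library, and 5F stood apart from all others. The culture mean was 27.5 times as high in 5F as in 5M (27.9 ± 6.20 against 1.01 ± 0.287 CPM, SD, n = 3 libraries).

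Six3 in cells was at 10.1, 9.51 and 8.94 CPM in 5F, at 7.22, 6.68 and 6.88 CPM in 4F and at 4.27, 3.76 and 7.05 CPM in 3F. In the male cultures it was at 0.804, 0.586 and 0.934 CPM in 3M, at 0.644, 0.716 and 0.714 CPM in 4M and at 0.465, 0.293 and 0.570 CPM in 5M. The female and male libraries did not overlap, and the highest culture mean was 21.5 times the lowest.

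Gsx2 in cells was at 4.16, 5.09 and 5.93 CPM in 5F, at 1.07, 1.38 and 1.04 CPM in 4F and at 0.163, 0.462 and 0.0425 CPM in 3F. It was at 0.0766, 0.127 and 0.0763 CPM in 3M, at 0.0195, 0.0462 and 0.0621 CPM in 4M and at 0.0886, 0.0917 and 0.285 CPM in 5M. Here 5F and 4F stood above all other libraries, while those of 3F overlapped with the male ones. The 5F mean was 119 times the 4M mean, which rests on 5 counts in 3 libraries.

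The other ventral genes were low throughout. The culture means of Nkx2-1 were 0.516, 0.579 and 0.529 CPM in 3F, 4F and 5F and 0.0552, 0.174 and 0.174 CPM in 3M, 4M and 5M, a highest-to-lowest ratio of 10.5. Dlx2 ranged from 0.0831 CPM in 5M to 0.714 CPM in 4F and Dlx1 from 0.0850 CPM in 5M to 0.487 CPM in 4F, ratios of 8.59 and 5.73. Culture 4F thus had the highest means of these 3 genes, and it was not the culture with the highest Gsx2, Otx2 or Six3.

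The dorsal genes followed another order. Emx2 was highest in 3M, at 10.0, 9.19 and 9.88 CPM (control, 120 and 320 mg/dL), and lowest in 5F, at 3.72, 4.45 and 4.32 CPM, a ratio of culture means of 2.33. Lhx2 was highest in 5M, at 5.85, 6.71 and 8.01 CPM, and lowest in 3F, at 3.79, 4.04 and 4.08 CPM, a ratio of 1.73. Emx1 ranged between culture means of 0.0871 CPM (3M) and 0.353 CPM (4M), a ratio of 4.05, on 3 to 18 counts per library.

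An edgeR quasi-likelihood F test over the 6 cultures, with a term for dose, called 9 of the 9 genes in cells at a Benjamini-Hochberg adjusted p under 0.05, where 68.0% of the 18725 features tested were called. The adjusted p was 2.5e-09 for Otx2, 3.1e-09 for Six3, 5.2e-08 for Gsx2 and 4.0e-06 for Emx2, and between 0.00014 and 0.0031 for the other 5 genes. A call was therefore common among all features, and the test says only that the 6 cultures differ by more than the parallel flasks of a culture. In these bulk libraries, fewer cells of a type and less RNA per cell cannot be told apart.

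**Figure D2:**
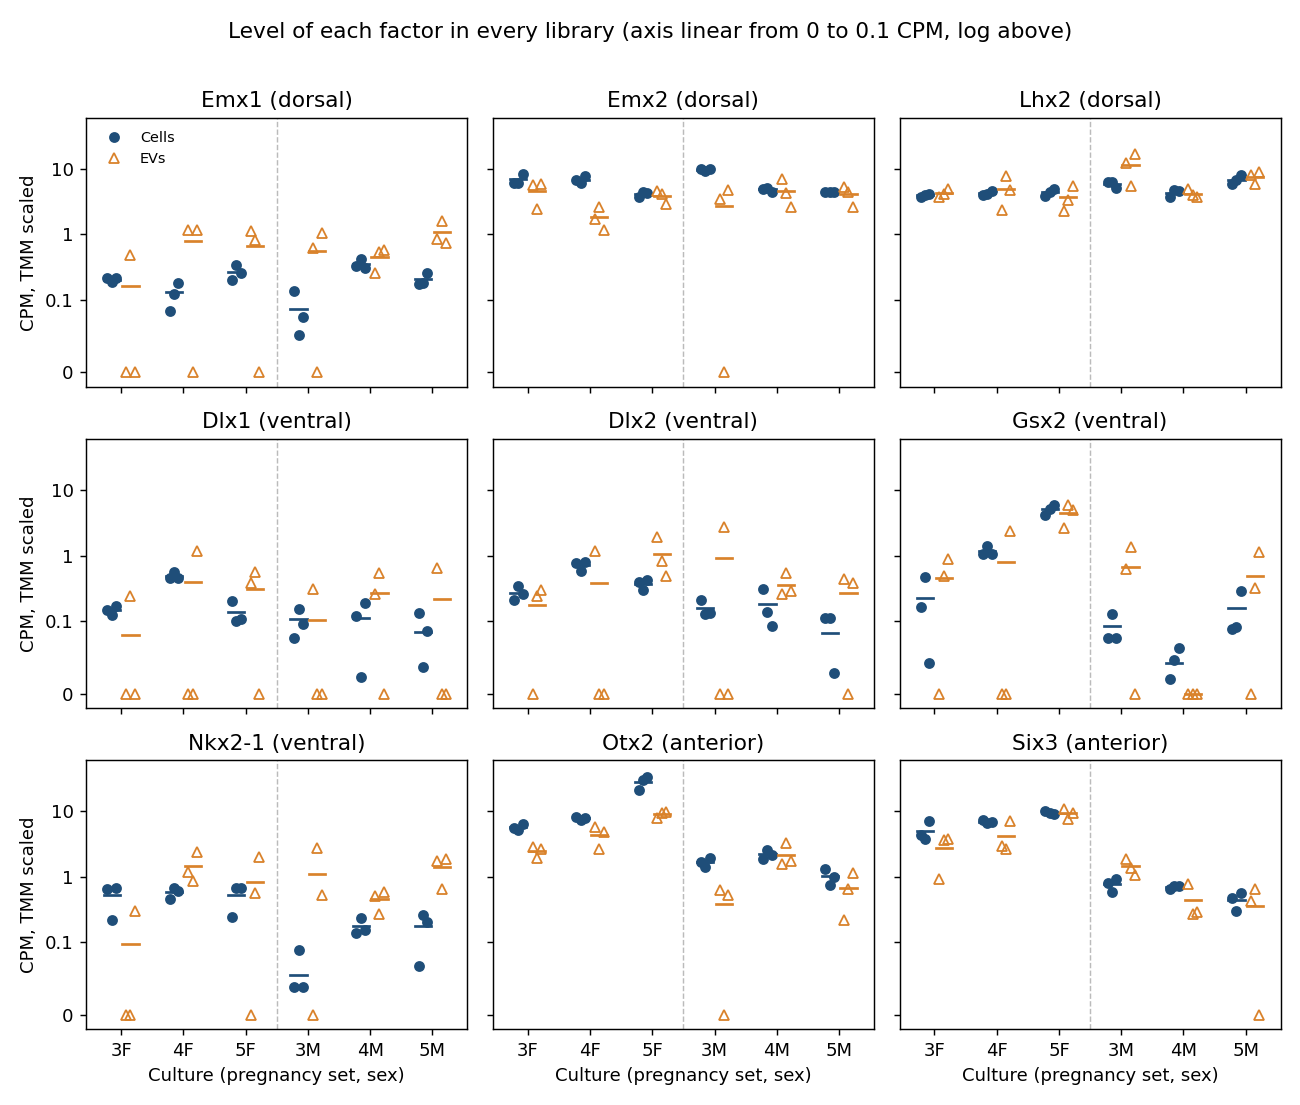
Level in CPM of each of the 9 genes in all 36 libraries, by culture, with filled circles for cells, open triangles for EVs, doses from left to right as control, 120 and 320 mg/dL, and bars for the mean of the 3 libraries (the axis is linear up to 0.1 and logarithmic above). Otx2 and Six3 in cells are higher in each female culture than in each male culture, while Emx2 and Lhx2 stay within a narrow band.

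In EVs, 4 of the 9 genes (Emx2, Lhx2, Otx2 and Six3) passed the filter on low counts, and 3 of them differed among cultures, where 50.3% of 13193 features were called. Otx2 in EVs was at 7.97, 9.42 and 9.82 CPM in 5F, at 5.79, 2.61 and 4.74 CPM in 4F and at 2.80, 1.93 and 2.64 CPM in 3F. It was at 0.624, 0 and 0.526 CPM in 3M, at 1.53, 3.22 and 1.72 CPM in 4M and at 0.216, 0.645 and 1.13 CPM in 5M. Culture 5F was again above all others, and the libraries of 3F and 4F overlapped with those of 4M.

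Six3 in EVs was at 11.0, 7.48 and 9.33 CPM in 5F, at 2.90, 2.61 and 7.11 CPM in 4F and at 0.932, 3.61 and 3.82 CPM in 3F. It was at 1.87, 1.36 and 1.05 CPM in 3M, at 0.767, 0.268 and 0.286 CPM in 4M and at 0.432, 0.645 and 0 CPM in 5M. The control library of 3F, with 1 count, was the single female value within the male range. The adjusted p of edgeR's test among cultures was 4.2e-05 for Six3, 4.3e-05 for Otx2 and 0.0033 for Lhx2, whose EV mean was highest in 3M (11.5 ± 5.72 CPM), and 0.64 for Emx2. The call of Lhx2 was lost without pregnancy 3 (adjusted p = 0.0783) and without the 320 mg/dL libraries (adjusted p = 0.116).

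The order of the 6 cultures in EVs followed that in cells for the anterior genes. Six3 had the same order in both, 5F, 4F, 3F, 3M, 4M and 5M from highest to lowest (Spearman's rho 1.0 over 6 culture means), and Otx2 differed only in the order of 3M and 5M (rho 0.94). The rho was 0.77 for Gsx2, 0.43 for Lhx2 and -0.09 for Emx2, whose 3M mean was the highest in cells and the next to lowest in EVs. These coefficients are descriptions over culture means, since each EV sample and its cell sample come from the same flasks.

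**Figure D3:**
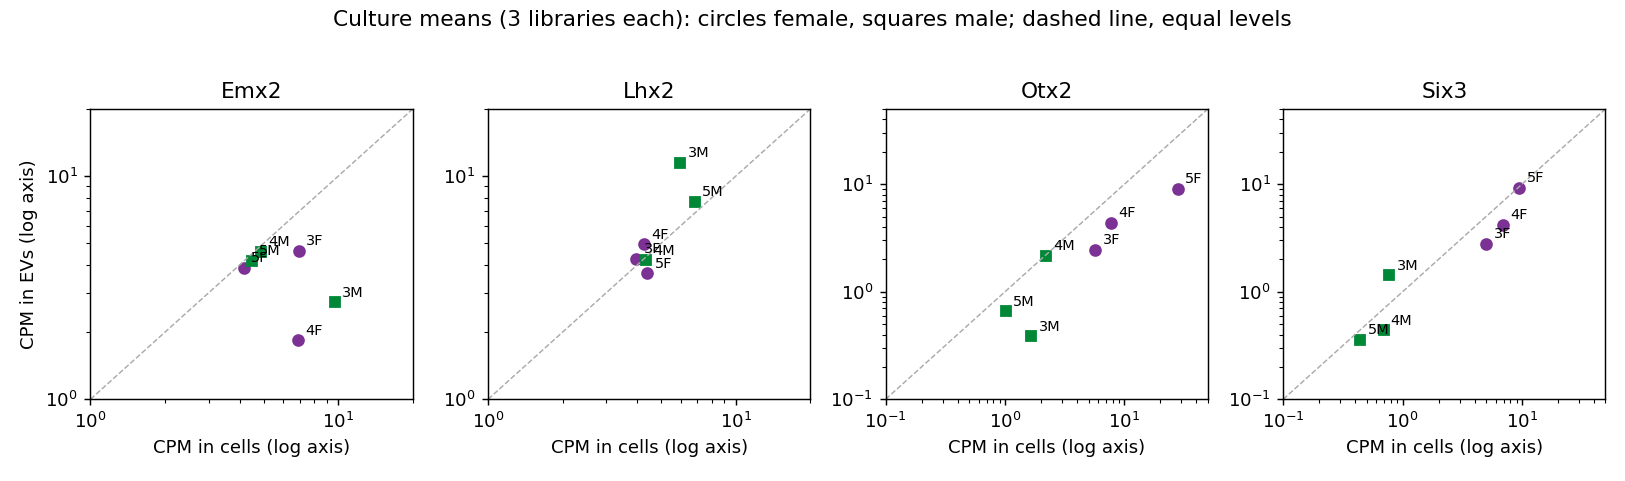
Culture mean in EVs against culture mean in cells, both in CPM on logarithmic axes, for Emx2, Lhx2, Otx2 and Six3, with 1 point per culture. The points of Six3 keep the same order on both axes, and those of Emx2 do not.

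The cultures fell by sex for 6 genes. In cells, all 3 female culture means of Dlx1, Dlx2, Gsx2, Nkx2-1, Otx2 and Six3 lay above all 3 male means, which held for 9.77% of the 21690 features tested. For Six3 the female means ran from 5.03 to 9.51 CPM and the male means from 0.443 to 0.775 CPM, and for Otx2 from 5.70 to 27.9 CPM and from 1.01 to 2.18 CPM. The gap was small for Dlx1, with 0.137 CPM as the lowest female and 0.109 CPM as the highest male mean, and for Gsx2, with 0.223 and 0.155 CPM. Emx1, Emx2 and Lhx2 overlapped between the sexes, although Lhx2 was lower in the female culture in 3 of 3 pregnancies.

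With the counts of each culture summed over doses and the pregnancy as a block, edgeR called none of the 9 genes between female and male cells at an adjusted p under 0.05, and called 0.0323% of all features. The log2 fold change, female over male, was 3.42 for Six3 (SE 0.45, 95% interval 2.29 to 4.55, unadjusted p = 0.000385, adjusted p = 0.348), 3.76 for Gsx2 (SE 0.94), 2.66 for Otx2 (SE 0.70), 2.03 for Nkx2-1 (SE 0.40), 1.48 for Dlx2 (SE 0.39) and 1.13 for Dlx1 (SE 0.48). Of these, 5 had an unadjusted p under 0.05, all but Dlx1, and the adjusted p of the 6 genes ran from 0.348 to 0.645. DESeq2 called 4 genes on the same sums (Gsx2, Nkx2-1, Otx2 and Six3), where it called 1.03% of 30506 features. Lhx2 had a log2 fold change of -0.48 (SE 0.26), Emx2 of -0.13 (SE 0.29) and Emx1 of -0.02 (SE 0.58). With 3 cultures a sex, an exact two-sided permutation test of the culture means cannot give less than p = 0.1, which it gave for each of the 6 genes.

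In EVs the female culture means lay above the male ones for Otx2 (2.46 to 9.07 against 0.383 to 2.16 CPM) and Six3 (2.79 to 9.27 against 0.359 to 1.43 CPM), as for 7.74% of 16152 features. The log2 fold change was 2.48 for Otx2 (SE 0.57) and 2.93 for Six3 (SE 0.68), both with an adjusted p of 0.182 in edgeR, which called none of the 5 tested genes and 0.0% of all features. Both genes had an unadjusted p under 0.05, and DESeq2 called neither. Emx2, Lhx2 and Nkx2-1 were not separated by sex in EVs.

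Marker sums of other cell types overlapped between the sexes, and edgeR called none of the 7 NSC, 4 neuronal and 3 astrocyte markers it tested. The 4 astrocyte markers summed to 21.4 to 102 CPM in female and 54.8 to 269 CPM in male cell libraries, with Aqp4 at 0 in all of them, and the 4 neuronal markers to 16.2 to 131 CPM in female and 9.42 to 33.3 CPM in male ones, most of the highest sum being Rbfox3 (up to 121 CPM, median 6.01 over the cell libraries). The 8 NSC markers ranged from 2805 to 4030 CPM in female and from 3274 to 4489 CPM in male libraries. The part of these cell types in the levels of Otx2, Six3 and the ventral genes was not tested. Sex and the individual pooled culture cannot be told apart within a pregnancy.

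Emx2 and Otx2 were called lower in EVs than in their cell-of-origin NSCs, relative to the other RNA in each. Both calls depended on the scaling, as given below, and Nkx2-1 was called higher in EVs on few counts. Emx2 in EVs ran from 0 to 6.90 CPM (median 3.79, 18 libraries) and in cells from 3.72 to 10.0 CPM (median 5.60). The ranges overlapped, but the EV mean was lower in 6 of 6 cultures, a log2 difference of -0.69 (SE 0.19, adjusted p = 0.00154). Otx2 ran from 0 to 9.82 CPM in EVs (median 2.27) and from 0.734 to 33.0 CPM in cells (median 3.91), was also lower in 6 of 6 cultures, and differed by -0.99 on the log2 scale (SE 0.32, adjusted p = 0.00552). Nkx2-1 ran from 0 to 2.73 CPM in EVs (median 0.564) and from 0.0381 to 0.680 CPM in cells (median 0.236), was higher in EVs in 4 of 6 cultures, and differed by 1.44 (SE 0.44, adjusted p = 0.00344). The EV values of Nkx2-1 rest on 35 counts over the 18 libraries, with a median of 2, and its median in cells is below the 0.647 CPM or more that 3 counts gave in an EV library. It reached the filter level of 0.624 CPM (library totals) in 5 cell and 7 EV libraries, where 8 libraries in all were needed.

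Lhx2, Gsx2 and Six3 did not pass the test. Lhx2 was between 2.28 and 16.8 CPM in EVs (median 4.93) and between 3.79 and 8.01 CPM in cells (median 4.54), with a log2 fold change of 0.23 (95% interval -0.11 to 0.56). Six3 had a log2 fold change of -0.22 (-0.72 to 0.28) and Gsx2 one of 0.24 (-0.99 to 1.47). Gsx2 had 52 EV counts in all, 38 of them in 5F, and was at 0 in the 3 EV libraries of 4M.

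In this test (edgeR, with terms for sex and dose) 6 of the 9 genes passed the filter and 3 of those were called, where 81.8% of 17758 features were called (38.1% higher and 43.7% lower in EVs) and the log2 fold changes of all features had a median of -0.14. The test took the libraries of a culture as independent, although its doses share the same cells. Its SEs and p-values are therefore not those of 6 independent cultures. The calls of Emx2 and Otx2 depended on the scaling. With RLE factors, under which the median of all features was 0.22, their log2 fold changes were -0.35 (adjusted p = 0.0893) and -0.60 (adjusted p = 0.0878), and that of Lhx2 was 0.58 (adjusted p = 0.00142). DESeq2 gave -0.34 for Emx2 (adjusted p = 0.104) and -0.58 for Otx2 (adjusted p = 0.0977). With the EV and cell library of a flask set as a block, 5 genes were called, where 81.2% of 22854 features were called. They were Emx2, Otx2, Nkx2-1, Six3 at -0.58 (adjusted p = 0.0148) and Emx1 at 1.28 (SE 0.38, adjusted p = 0.00292). Without pregnancy 3 Emx2 was at -0.38 (adjusted p = 0.0738), and without pregnancy 5 Nkx2-1 was at 0.91 (adjusted p = 0.164). In control libraries alone Emx2 was at -0.35 (adjusted p = 0.345) and Otx2 at -0.95 (adjusted p = 0.0575), and summed over doses Nkx2-1 was at 0.87 (adjusted p = 0.127).

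Emx1, Dlx1 and Dlx2 did not pass the filter on low counts in the test of EVs against cells. They reached 0.624 CPM (library totals) in 0, 0 and 2 cell libraries and in 6, 1 and 3 EV libraries, where 8 in all were needed. Emx1 had 31 EV counts in all, 0 to 5 per library, which gave 0 to 1.61 CPM (median 0.598) against 0.0509 to 0.416 CPM in cells (median 0.194). Its EV mean was higher in 5 of 6 cultures, and in each of the 7 alternative fits that kept it the log2 fold change lay between 1.26 and 2.00 with an adjusted p of 0.0180 or less. These fits draw on the same EV counts, and Emx1 reached the filter level above in EV libraries alone, so they add no separate support. The cell level of Emx1 is however below the 0.647 to 4.09 CPM that 3 counts gave in an EV library, so that single counts decide its EV value. Dlx1 had 12 and Dlx2 22 EV counts. Dlx2 was called by DESeq2 alone (log2 fold change 1.14, adjusted p = 0.00595), which called 75.2% of 30942 features.

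**Figure D4:**
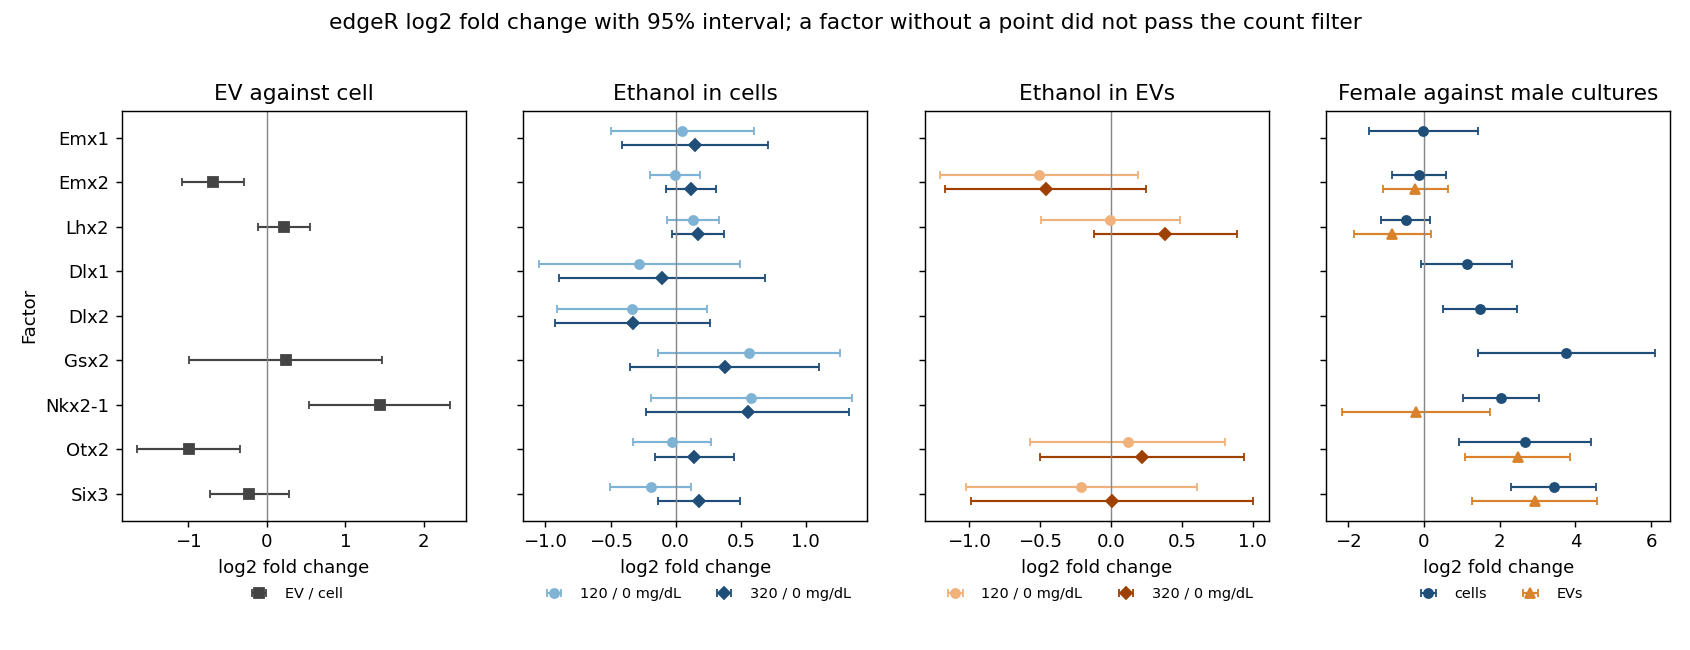
Log2 fold change with its 95% interval for each gene tested, in 4 panels for EVs over cells, ethanol over control in cells, ethanol over control in EVs, and female over male cultures. The intervals of the ethanol panels all include 0, and those of Otx2, Six3, Gsx2, Nkx2-1 and Dlx2 in female over male cells do not.

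Ethanol moved none of the 9 genes past the test in cells. Gsx2, which with Nkx2-1 had the largest estimates, was at 0.0195 to 4.16 CPM in controls (median 0.126), at 0.0462 to 5.09 CPM at 120 mg/dL (median 0.295) and at 0.0425 to 5.93 CPM at 320 mg/dL (median 0.181), so the doses overlapped almost wholly. It was higher at 120 mg/dL than in the control of its own culture in 6 of 6 cultures, with a log2 fold change of 0.56 (95% interval -0.14 to 1.26, unadjusted p = 0.106), and in 3 of 6 at 320 mg/dL. Nkx2-1 was at 0.0383 to 0.651 CPM in controls (median 0.189), at 0.0891 to 0.675 CPM at 120 mg/dL (median 0.244) and at 0.0381 to 0.680 CPM at 320 mg/dL (median 0.405). It was higher in 5 of 6 cultures at each dose, with log2 fold changes of 0.58 (-0.19 to 1.35) and 0.55 (-0.23 to 1.34).

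The better counted genes bound the ethanol difference more closely. Emx2 had a log2 fold change of 0.00 (95% interval -0.19 to 0.19) at 120 mg/dL and of 0.12 (-0.08 to 0.31) at 320 mg/dL. For Lhx2 the values were 0.14 (-0.06 to 0.34) and 0.17 (-0.03 to 0.37, unadjusted p = 0.0893), higher in 5 of 6 cultures at each dose. Otx2 was at -0.03 (-0.33 to 0.27) and 0.14 (-0.16 to 0.45), and Six3 at -0.19 (-0.50 to 0.12) and 0.18 (-0.13 to 0.50). The low genes had wide intervals, with Dlx1 at -0.28 and -0.10, Dlx2 at -0.33 at both doses and Emx1 at 0.05 and 0.15.

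In these fits, with the culture as a block, edgeR called 0 of 9 genes at either dose, as it did 0.0% of the 18725 features, and no member had an unadjusted p under 0.05, against 476 features at 120 mg/dL and 1575 at 320 mg/dL. DESeq2 called 4 and 94 features, none of them a member. Both doses were compared with the same control libraries.

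In EVs the test of ethanol held Emx2, Lhx2, Otx2 and Six3 and called none of them at 120 mg/dL (0.00758% of 13193 features called) or at 320 mg/dL (0.0758% called), none with an unadjusted p under 0.05, and DESeq2 called none either. Emx2 in EVs was at 1.74 to 6.90 CPM in controls (median 4.97), 0 to 4.51 CPM at 120 mg/dL (median 3.38) and 1.19 to 5.87 CPM at 320 mg/dL (median 2.79). The ranges overlapped, and the log2 fold changes were -0.51 (95% interval -1.20 to 0.19, lower in 5 of 6 cultures) and -0.46 (-1.17 to 0.25, lower in 4 of 6). Lhx2 was at 0.00 and 0.38 (-0.12 to 0.89, higher in 5 of 6 cultures at 320 mg/dL), Otx2 at 0.12 and 0.22, and Six3 at -0.21 and 0.01, all on the log2 scale. Nkx2-1, too low to be tested, had an EV median of 0.256 CPM in controls, 0.599 CPM at 120 mg/dL and 1.23 CPM at 320 mg/dL, on 0 to 8 counts per library. With TMM scaling it was higher at 320 mg/dL in 6 of 6 cultures. By library totals it was lower at 320 mg/dL than in control in 4M (0.481 against 0.499 CPM), 5M (1.24 against 1.46 CPM) and 4F (1.29 against 1.47 CPM). Its counts there were 2 and 2 (4M), 5 and 8 (5M) and 2 and 2 (4F), and the controls of 3M, 3F and 5F held 0 counts.

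The change of the EV-to-cell ratio with ethanol, which asks whether EVs and cells responded differently, was tested for 8 of the 9 genes, all but Dlx1. None was called by edgeR at 120 mg/dL (0.00438% of 22854 features called) or at 320 mg/dL (0.0% called), none had an unadjusted p under 0.05, and DESeq2 called none. The log2 ratio changes ran from -0.91 (Nkx2-1) to 0.69 (Gsx2) at 120 mg/dL and from -0.63 (Emx1) to 1.49 (Gsx2) at 320 mg/dL. Even the narrowest interval, that of Lhx2 at 320 mg/dL, spanned -0.61 to 1.07, so that changes within it could not be told from 0 at the EV depth.

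Further genes of the same regional programmes were present in cells. Of the dorsal list, Pax6, a regulator of cortical progenitors, was at 18.2 CPM (mean of 18 cell libraries), Gli3, a repressor in the hedgehog pathway, at 15.7 CPM and Dmrta2, a factor of the caudomedial cortex, at 9.87 CPM. Of the ventral list, Meis2 was at 109 CPM and Olig2, which also marks oligodendrocyte precursors, at 94.8 CPM. The list of hem and choroid plexus genes summed to 8.17 to 18.1 CPM in cells, that of eye and hypothalamus genes to 1.44 to 2.99 CPM and that of midbrain, hindbrain and spinal cord genes to 2.67 to 11.7 CPM. No gene of the dorsal list was at 0 throughout, and of the ventral list only Dlx6 was. Cell libraries thus held RNA of both dorsal and ventral genes, at levels that differed widely within each list. The means ran from 0.125 to 18.2 CPM over the dorsal list and, without Dlx6, from 0.0538 to 109 CPM over the ventral list.

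Between EVs and cells, 4 of the 10 dorsal genes tested were higher and 1 was lower in EVs, with a median log2 fold change of 0.43 against -0.14 over all features. That is 5 of 10 called, where 81.8% of all features were called (38.1% higher and 43.7% lower), and the lists that follow have the same background. Tbr1, of postmitotic cortical neurons, was higher by 3.43 (SE 0.30) and Neurog1, a proneural factor, by 3.42 (SE 0.42), while Pax6 fell by 0.60 (SE 0.18) on the log2 scale. Of the 13 ventral genes tested, 5 were higher and 4 lower (9 called), with a median of -0.07. Lhx8, a factor of the medial ganglionic eminence, was higher by 2.92 (SE 0.31) and Gad2, an enzyme of GABA synthesis, by 2.28 (SE 0.18), while Meis2 fell by 1.67 (SE 0.12). Lhx8 and Lhx6, also among the higher genes, held at most 0.191 and 0.403 CPM in a cell library. Both passed the filter on low counts through EV libraries, and Lhx8 rests on 40 EV counts, with a median of 2.

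Among the hem and choroid plexus genes, 3 of 5 tested were higher, with Kl at 4.19 (SE 0.29) and Lmx1a at 2.39 (SE 0.21), and 1 was lower, Otx1 at -0.57 (SE 0.23). In the midbrain, hindbrain and spinal cord list 5 of 7 tested were higher, led by Pax7 at 4.69 (SE 0.21), and 1 was lower, En2 at -0.75 (SE 0.27). The share called in both lists is to be read against the same 81.8%, and the share higher against 38.1%. Of the 6 eye and hypothalamus genes 1 was tested, Vax2, and it was higher by 1.28 (SE 0.14). The scaling sets the split of calls over all features, with 46.6% of them higher in EVs with TMM, 56.4% with RLE factors and 35.4% with library totals. No gene of these lists was called by edgeR for ethanol in cells, in EVs or in the ratio, or between the sexes.

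The opposite-strand partners of the anterior genes showed the split of the cultures seen for the genes themselves. Six3os1 was at 13.2 to 22.0 CPM (range of culture means) in female and 1.52 to 2.99 CPM in male cells, and Otx2os1 at 2.04 to 3.88 and 0.551 to 1.25 CPM. Dlx1as was at 0.0386 to 0.109 CPM in female and 0.0154 to 0.0230 CPM in male cells. These means rest on 3, 12 and 7 counts in 3F, 4F and 5F and on 3, 2 and 3 counts in 3M, 4M and 5M. Dlx6os1 was lower in female (0.622 to 0.649 CPM) than in male cells (0.729 to 1.03 CPM) and Emx2os overlapped. All 3 female means lay above all 3 male means for 9.77% of the 21690 features tested. Since no source used here gives the strand option of HTSeq, reads of a gene and its partner may not have been kept apart. Among genes with at least 1 CPM, the closest to Six3 over the 18 cell libraries was Six3os1 (Pearson's r 0.99 of log2 CPM, 13236 genes compared), followed by Otx2 (0.94) and Pou3f1 (0.90), and Otx2 was closest to Six3os1 (0.94), Six3 (0.94) and Lix1 (0.92).

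The other members had other neighbours. Gsx2 was most like Asb4 (r 0.90), Epb41l3 (0.89) and Lix1 (0.87), Emx2 most like Neto2 (0.96) and H4c12 (0.95), and Lhx2 most like Fbxo2 (0.90), Dio2 (0.90) and Mras (0.89). The 18 points of each correlation come from 6 cultures, with 3 libraries each. Emx1, Dlx1, Dlx2 and Nkx2-1 were below 1 CPM on average and were not compared.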

How the data were processed

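RNA of 18 cell and 18 EV samples was sequenced by the authors with a stranded, rRNA-depleted kit. Per the study's methods the authors deduplicated the reads, trimmed them with Trimmomatic, aligned them to mm39 with STAR and counted them with HTSeq, and the deposited values are whole counts per gene, not normalized. The strand and feature settings of HTSeq are not given in the sources used here. Of the 40205 features, 31069 had a count and 79.4% matched the GENCODE annotation (GRCm39) by symbol.

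The tests on the counts used edgeR 4.0.16 (R 4.3.3): filterByExpr (minimum count 10, minimum total 15), TMM factors and quasi-likelihood F tests, with Benjamini-Hochberg adjustment over all features tested and a threshold of 0.05. CPM values are counts per M of the TMM-scaled library total. Standard errors are the log2 fold change divided by the square root of F, and edgeR bounds p by that of a Poisson model, so a p can exceed what they imply. EVs were compared with cells with terms for sex and dose, and each dose with control within cultures (culture as a block). For the ratio, an interaction term was tested, with a block for each flask set's EV and cell sample. Cultures were compared with a term for dose, and the sexes on counts summed over doses with the pregnancy as a block. Intervals are 95%. Correlations, and the numbers of cultures or pregnancies higher or lower in a comparison, used log2 CPM with a prior count of 1. P-values rest on the spread between these samples, which differs by fit. For EV against cell it is that between libraries, without a block for culture. For ethanol and for the differences among cultures it is that between parallel flasks of a culture, and for the ratio that between flask sets. For the sexes it is the spread of the female to male difference over pregnancies. The kinds of fit were tested on simulated data.

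The doses of a culture share its cells by the labels. The correlation of their deviations from the group means had a median of 0.638 (control and 120 mg/dL) and 0.558 (control and 320 mg/dL) in cells, over 0.1 in 6 of 6 cultures each, and of 0.173 and 0.204 in EVs. Between the EV and the cell library of a flask set it was 0.0633, over 0.1 in 3 of 18, and between the female and male cells of a pregnancy 0.329, over 0.1 in 6 of 9. Alternatives were RLE factors, library totals, no filter, DESeq2 1.42.0, leaving out each pregnancy, other blocks, counts thinned by binomial sampling, controls alone and, chosen after seeing the data, gene spans and leaving out the EV library with the fewest counts. The members and all gene lists were chosen with earlier results of these data known. Named in the text are all 9 members, of each list the 3 genes with the highest cell level and the 3 called genes with the largest change of 1 direction in 6 of 6 cultures, and for each member over 1 CPM its 3 most correlated genes. A few genes that this rule gives are not reported here. En2 and Otx1 were named as the only genes of their lists that were lower in EVs, and Sox2, Dlx6 and Aqp4 for being at 0. Lhx6 was named for its low level in cells.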

Additional observations from a re-analysis of the deposited data

Results flagged for a closer look

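Of 54 groups of 6 libraries (9 genes, cells or EVs, 3 doses), 18 held a library far from the other 5 by Dixon's ratio. Its limit is set to flag about 1 in 20 groups of normally distributed values. The ratio was taken on CPM without a logarithm, and many values lie near 0, so that rate need not hold here and 18 cannot be set against it. In cells, culture 5F stood apart for Otx2 at 21.0, 29.7 and 33.0 CPM and for Gsx2 at 4.16, 5.09 and 5.93 CPM (control, 120 and 320 mg/dL), while the next libraries reached 8.18 CPM for Otx2 and 1.38 CPM for Gsx2. Its EVs stood apart for Otx2 at 9.42 CPM (120 mg/dL), for Gsx2 at 2.65 CPM (control) and 5.82 CPM (120 mg/dL) and for Six3 at 11.0 CPM (control). Culture 4F stood apart for Dlx1 in cells at 0.450, 0.554 and 0.458 CPM, and its EVs at 320 mg/dL, with 1.19 CPM from 1 count, were the only ones of that dose with a Dlx1 count. Culture 3M was apart for Emx2 in cells at 120 mg/dL (9.19 CPM), and its EV library at 120 mg/dL, the one with the fewest counts, for Dlx2 and Nkx2-1 (2.73 CPM each, 2 counts). Lhx2 was apart in 5M cells at 320 mg/dL (8.01 CPM). The same culture is thus counted at several doses, and the groups are not independent.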

How the results depend on the processing

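Over 530 alternative values of 59 results for single genes, 458 kept direction and side of the threshold, 11 lost the call, 21 gained one and 40 changed sign. EV against cell called 3 genes (81.8% of all features called). It called 5 without the filter on low counts (70.9% of all) and 5 with the replicate block of EV and cell library (81.2%). With control libraries alone it called 1, Emx1 (67.4% of all). With counts thinned to the smallest library it called 0, since none of the 9 passed the filter, and 76.9% of the features that did were called. Between female and male cells, where edgeR called 0, library totals called 1 (0.12% of all features called), DESeq2 4 (1.03%) and libraries taken as independent 5 (5.7%). In EVs no filter called 3 (Gsx2, Otx2 and Six3, with 3.71% of all features called) and independent libraries 2 (12% of all). Leaving out 1 pregnancy or the smallest EV library gave 0 to 2 calls between the sexes in EVs, with 2 (Lhx2 and Otx2) without pregnancy 4 (2.98% of all features called). Among EV cultures it gave 1 to 4 calls, where 25.2% to 51.1% of all features were called, with 1 of 2 tested without pregnancy 5 (25.2%). The paired fits changed no other call: fits of ethanol, ratio and sex without the replicate block called 0 members, as with it.

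Changes of sign were all in values that had not passed the test, and their cause was not tested. For EV against cell, Lhx2 was at -0.26 with library totals, -0.10 with no filter, -0.080 with the replicate block and -0.19 when summed over doses. Gsx2 was at -0.35, -0.13 and -0.0057 in the first 3 of these and at -0.091 in controls alone, and Six3 at 0.16 with RLE factors, 0.16 with DESeq2 and 0.061 in controls alone. With library totals, Emx1 at 120 mg/dL in cells was at -0.024, Otx2 in EVs at -0.035 (120 mg/dL) and -0.041 (320 mg/dL) and Six3 in EVs at -0.18 (320 mg/dL). Six3 in EVs at 320 mg/dL was at -0.035 with no filter and -0.16 without the replicate block, Otx2 in cells at 120 mg/dL at 0.12 without it, Lhx2 in EVs at 120 mg/dL at 0.0015 with DESeq2, and Emx2 between the sexes in EVs at 0.0036 with libraries taken as independent. Leaving out 1 pregnancy moved the log2 fold change at 120 mg/dL in cells between -0.14 and 0.37 for Emx1, -0.067 and 0.040 for Emx2, -0.53 and 0.086 for Dlx1, and -0.12 and 0.088 for Otx2. At 320 mg/dL in cells the ranges were -0.0042 to 0.36 for Emx1, -0.21 to 0.22 for Dlx1, -0.079 to 0.51 for Gsx2 and -0.013 to 0.27 for Six3. In EVs they were -0.17 to 0.11 for Lhx2 at 120 mg/dL and -0.16 to 0.0015 for Six3 at 320 mg/dL. Between the sexes they were -0.54 to 0.71 for Emx1 and -0.40 to 0.17 for Emx2 in cells, and -0.43 to 0.074 for Emx2 and 0.077 to 0.22 for Nkx2-1 in EVs.

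Over all features the number called moved between 7354 and 23256 for EV against cell, 0 and 4 (cells, 120 mg/dL), 0 and 94 (cells, 320 mg/dL), 0 and 157 (EVs, 120 mg/dL), 0 and 267 (EVs, 320 mg/dL), 0 and 2 for the ratio at each dose, 3037 and 8433 among EV cultures, 6 and 1029 between the sexes in cells, and 0 and 1475 in EVs. In edgeR, 14527 (EV against cell), 0 and 0 (cells), 1 and 10 (EVs), 1 and 0 (ratio), 6632 (EV cultures), 7 and 0 (sexes) were called as reported. The EV depth limits what can be seen of Emx1, Dlx1, Dlx2, Gsx2 and Nkx2-1, whose median EV count over the 18 libraries was 0 to 2.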
